A study of Saccharomyces cerevisiae with 11 samples.

Results

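The mitochondrial ribosomal protein genes of Saccharomyces cerevisiae were taken as the nuclear protein-coding open reading frames (ORFs) whose symbol is MRPL, MRPS or RSM followed by a number. The rule found 54 genes among 6002 nuclear protein-coding ORFs, and all 54 had usable coverage, as had 5976 of the 6002. Of the 54, 34 (MRPL) encode proteins of the large mitochondrial subunit and 20 (MRPS and RSM) proteins of the small subunit. By their RefSeq family names, 24 belong to protein families shared by all ribosomes, 9 to families shared with bacteria and 20 to families specific to mitochondria. RSM22, named after the small subunit, carried no family name.

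Mitochondrial ribosomes translate the few proteins encoded by mitochondrial DNA, most of them core subunits of the respiratory chain and the ATP synthase. Nearly all of their proteins are encoded in the nucleus, made on cytosolic ribosomes and imported, and in yeast these genes are transcribed at a modest level compared with the cytosolic ribosomal protein genes. A typical yeast promoter holds a nucleosome-depleted region, flanked downstream by a well-placed +1 nucleosome at which the regular array over the gene begins. Micrococcal nuclease (MNase) cuts DNA between nucleosomes, so the sequenced fragments mark protected DNA, and a light digestion leaves easily cut nucleosomes and other complexes in the library that a heavy digestion removes.

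The study mapped nucleosomes by MNase sequencing in 11 libraries of fixed BY4742 cells grown in synthetic complete medium with 2% galactose. Every library carried both topoisomerases fused to an auxin-inducible degron (Top1-AID, Top2-AID). Strain yTL1245 had no other change, and strain yTL1290 also carried OsTIR1, the rice F-box protein that targets degron fusions for degradation, under the ADH1 promoter (pADH1-OsTIR1). The OsTIR1 cultures were left untreated or given 500 uM auxin for 60 minutes, and 0.1875 U of MNase was used for a high and 0.01171875 U for a low dose. The strain without OsTIR1 was not given auxin, so loss of the topoisomerases and any other action of auxin cannot be told apart. DNA coverage does not show whether Top1 or Top2 was depleted.

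Label and file name matched for 7 libraries and disagreed for 4, and the groups used here follow the file names. The library called untreated OsTIR1 high B was labelled as an untreated low-dose library, auxin high A as an auxin low-dose library and auxin low B as an auxin high-dose library. Auxin low A was labelled as an untreated high-dose library, so its treatment differs as well as its dose. By file name there were 2 libraries (A and B) in each group except untreated OsTIR1 at the low dose, which had 1. Nothing in the labels says that A and B came from separately grown cultures, so the p-values measure the spread between these libraries, which may be technical. The libraries held 9220720 to 31178329 fragments of 95 to 225 bp. The mean fragment length lay between 129 and 140.3 bp in the 6 high-dose libraries and between 149.8 and 162 bp in the 5 low-dose libraries, so the file-name doses did not overlap in length.

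All levels below are relative coverage, that is, fragment coverage divided by its nuclear average in the same library, leaving out the ribosomal DNA, so that 1 is the library mean. The promoter was the 250 bp before the start codon, the +1 window the stretch from 60 bp before to 86 bp after it, and the body the whole ORF. Behind a member's value stood at least 71.5 fragments in the promoter, 46.6 in the +1 window and 92.8 in the body, as estimated from coverage and mean fragment length.

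The mean profile of the 54 genes had a deep gap upstream of the start codon at the high dose. It bottomed at -125 to -127 bp from the start codon, at levels of 0.117 and 0.161 without OsTIR1, 0.126 and 0.118 in untreated OsTIR1 cells and 0.135 and 0.191 with auxin. All 6 values lay far below those of the mean profile over all ORFs, which bottomed at 0.560 to 0.635. A deep gap was not particular to the members. The mean profile of the 138 cytosolic ribosomal protein genes bottomed at 0.135 to 0.251 at the high dose. At the low dose the gap stayed at the same place, -122 to -128 bp, but was filled to 0.751 and 1.03 without OsTIR1, 0.774 untreated and 0.604 and 0.799 with auxin. The doses did not overlap, and at each dose the untreated, auxin and OsTIR1-free libraries were intermingled. These mean profiles are descriptions and carry no test.

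**Figure D1:**
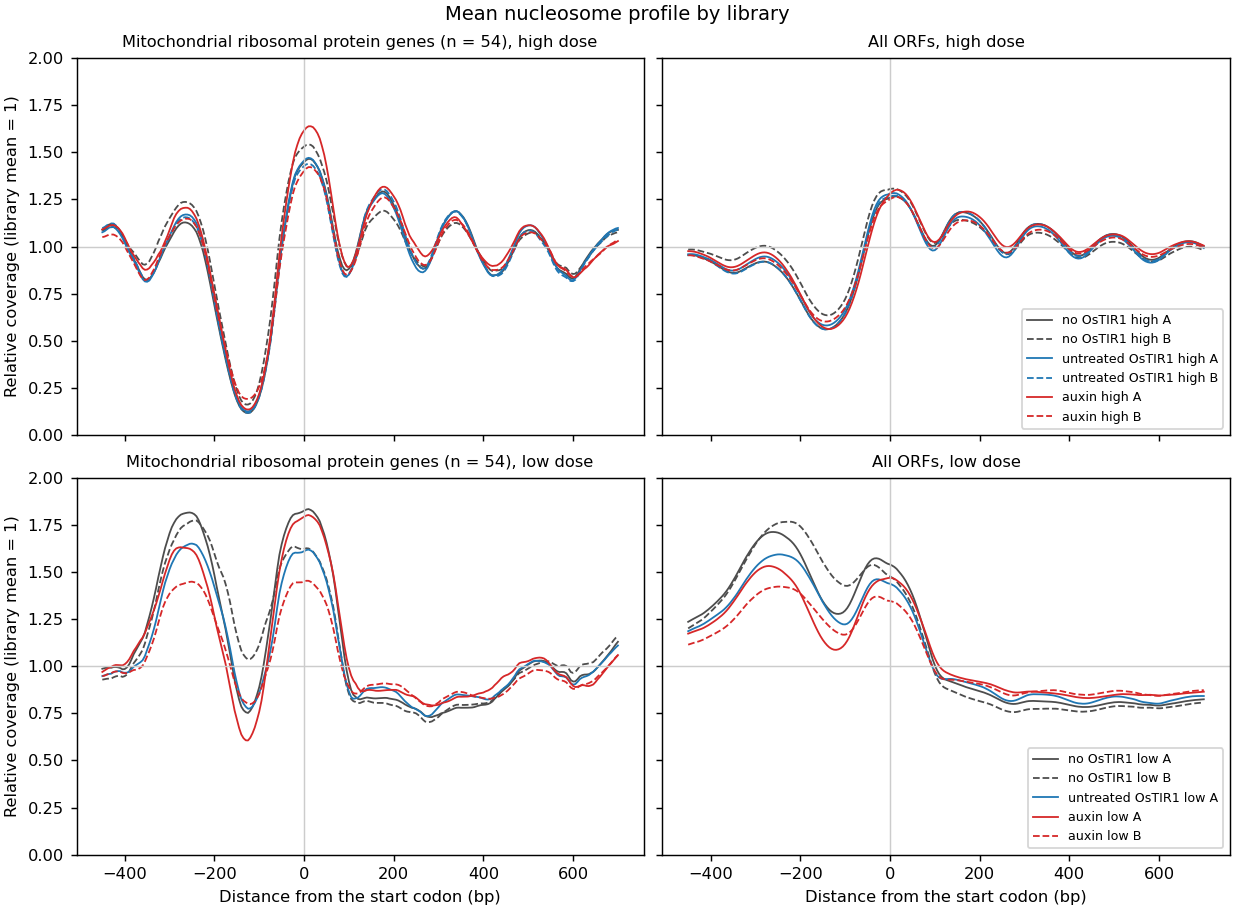
Mean relative coverage (vertical axis, library mean = 1) against the distance from the start codon in bp (horizontal axis), for the 54 mitochondrial ribosomal protein genes on the left and all ORFs on the right, with the high dose above and the low dose below. Each line is a library (solid A, dashed B; grey without OsTIR1, blue untreated OsTIR1, red auxin). The members' gap falls to between 0.117 and 0.191 at the high dose and to between 0.604 and 1.03 at the low dose.

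The +1 nucleosome of the mean profile was centred 9 to 13 bp inside the coding region at the high dose, with a peak of 1.42 to 1.64 against 1.26 to 1.31 for all ORFs. Downstream, the 40 members of at least 450 bp showed a regular array. Its spacing was 163 and 165.5 bp without OsTIR1, 165 and 164.5 bp in untreated OsTIR1 cells and 162 and 162.5 bp with auxin. Both auxin values were below the other 4, though the nearest of them differed by less than A and B did without OsTIR1. Over all ORFs the spacing was 158 to 161.5 bp. The difference between peaks and troughs of the array was 0.392 to 0.463 in members and 0.195 to 0.236 over all ORFs, a comparison of means over very different numbers of genes.

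Gene by gene, the gap lay at much the same distance from the start codon. At the high dose the members' own lowest points had an interquartile range of 47.8 to 53.2 bp in position, against at least 95 bp over all ORFs. In the 50 bp window that begins 150 bp upstream, a window and a level set after the mean profile had been seen, 44 of 54 members had a high-dose mean below 0.25, as had 38.4% of all ORFs. The median member stood at 0.111 there and the median ORF at 0.447. No member had a low-dose mean below 0.25 in this window.

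RSM19, for the small-subunit head protein uS19m (chromosome XIV, 695052 to 695327, minus strand, sacCer3), had the emptiest window. Its coverage there was 0.00795 and 0.0183 without OsTIR1, 0.0187 and 0.0159 untreated and 0.0386 and 0.0354 with auxin at the high dose. At the low dose it was 0.622 and 1.00 without OsTIR1, 1.31 untreated and 0.440 and 0.716 with auxin. The doses did not overlap, and the 2 auxin libraries were the highest of the 6 high-dose libraries. Mean nuclear coverage was 332 and 123 without OsTIR1 and 198 and 160 with auxin at the high dose. The high-dose values of RSM19 therefore rest on very few fragments, and the order of these libraries is not resolved. Taking each gene at its own lowest point, the member median was 0.0424 and 0.0560 without OsTIR1, 0.0493 and 0.0385 untreated and 0.0631 and 0.107 with auxin. The medians over all ORFs had the same 2 auxin libraries highest, at 0.0881 and 0.117, 0.0926 and 0.0842, and 0.1199 and 0.173.

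MRPL7, for the large-subunit protein uL5m of the central protuberance (chromosome IV, 936615 to 937493, plus strand), was the only member above 1 in the window. It stood at 1.09 and 1.18 without OsTIR1, 1.25 and 1.23 untreated and 1.12 and 1.052 with auxin at the high dose. Its low-dose values of 1.11, 0.815, 0.946, 1.29 and 1.053 overlapped them. Its own gap lay further out, at -219.5 bp, and reached 0.0683 to 0.144 at the high dose, and its +1 nucleosome lay 64.5 bp inside the coding region. The 2 members next to MRPL7 in the order, MRPL19 (uL11m) and MRPL10 (uL15m), had high-dose means of 0.469 ± 0.0711 and 0.411 ± 0.0554 (SD, n = 6).

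**Figure D2:**
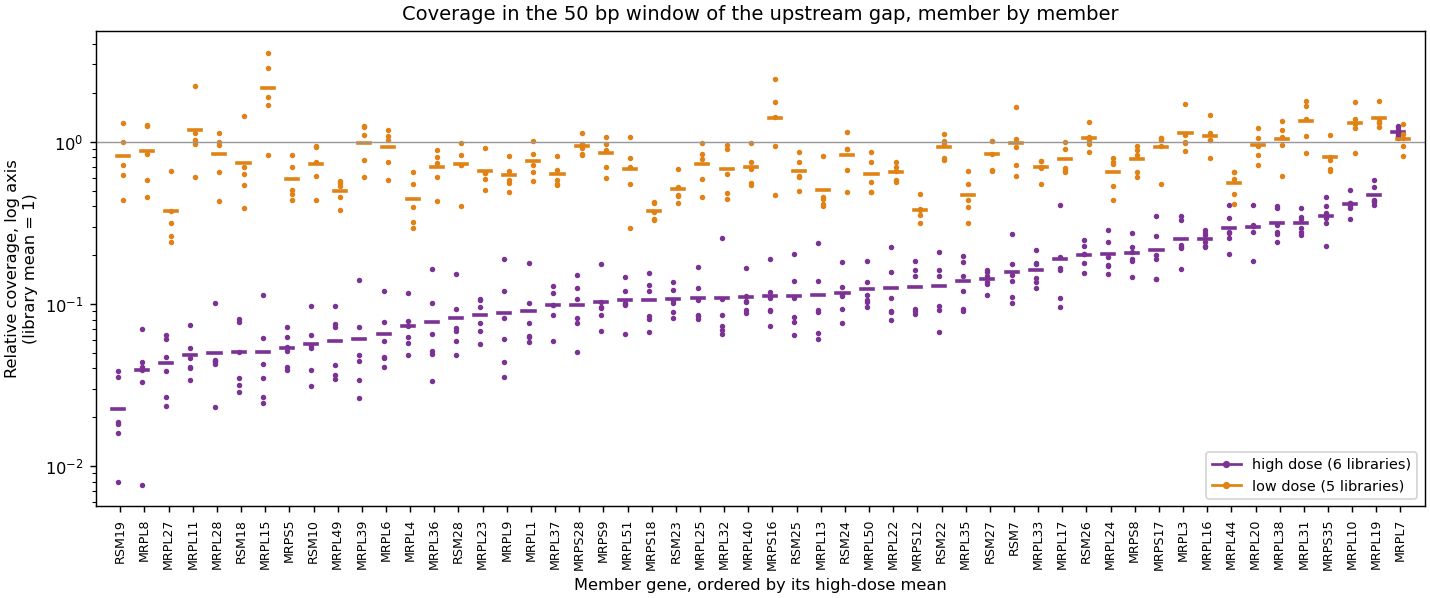
Relative coverage (vertical axis, log scale, library mean = 1) in the 50 bp window that begins 150 bp upstream of the start codon for each of the 54 members (horizontal axis, ordered by high-dose mean). Points are libraries and bars their means, purple for the 6 high-dose and orange for the 5 low-dose libraries. Members run from 0.0224 (RSM19) to 1.15 (MRPL7) at the high dose, and MRPL7 is the only member whose high-dose mean exceeds 1.

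The position of the +1 nucleosome varied between members. It was taken as the highest point from 50 bp before to 150 bp after the start codon. In MRPS28 and MRPS35 the high-dose median lay at the limit of 150 bp. Over all 54 members, resolved or not, the median position was 22.75 bp inside the coding region at the high dose. By these medians the highest point lay at or downstream of the start codon in 40 members and upstream in 14. In 3 members (MRPS9, RSM18 and MRPL40) the 6 high-dose libraries placed it within 10 bp. In 24 members they differed by over 50 bp, so for these genes the position was not resolved. The split of 40 and 14 includes such members. MRPL19, at 131, -45, -38, 144, 132 and -45 bp in the 6 libraries, had a median of 46.5 bp and counted as downstream.

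Over the 250 bp promoter the median member stood at 0.664 and 0.757 without OsTIR1, 0.693 and 0.644 untreated and 0.698 and 0.700 with auxin at the high dose. At the low dose it stood at 1.32 and 1.39, 1.26, and 1.22 and 1.15. In every library the median member promoter was below that of all ORFs, which was 0.783 to 0.879 at the high and 1.25 to 1.47 at the low dose. The +1 window went the other way, with member medians of 1.17 to 1.36 at the high dose against 1.16 to 1.23 for all ORFs, and of 1.26 to 1.67 against 1.23 to 1.36 at the low dose. Bodies were close to the genome at 1.053 to 1.13 against 1.03 to 1.06 at the high dose and 0.805 to 0.892 against 0.757 to 0.871 at the low dose.

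**Figure D3:**
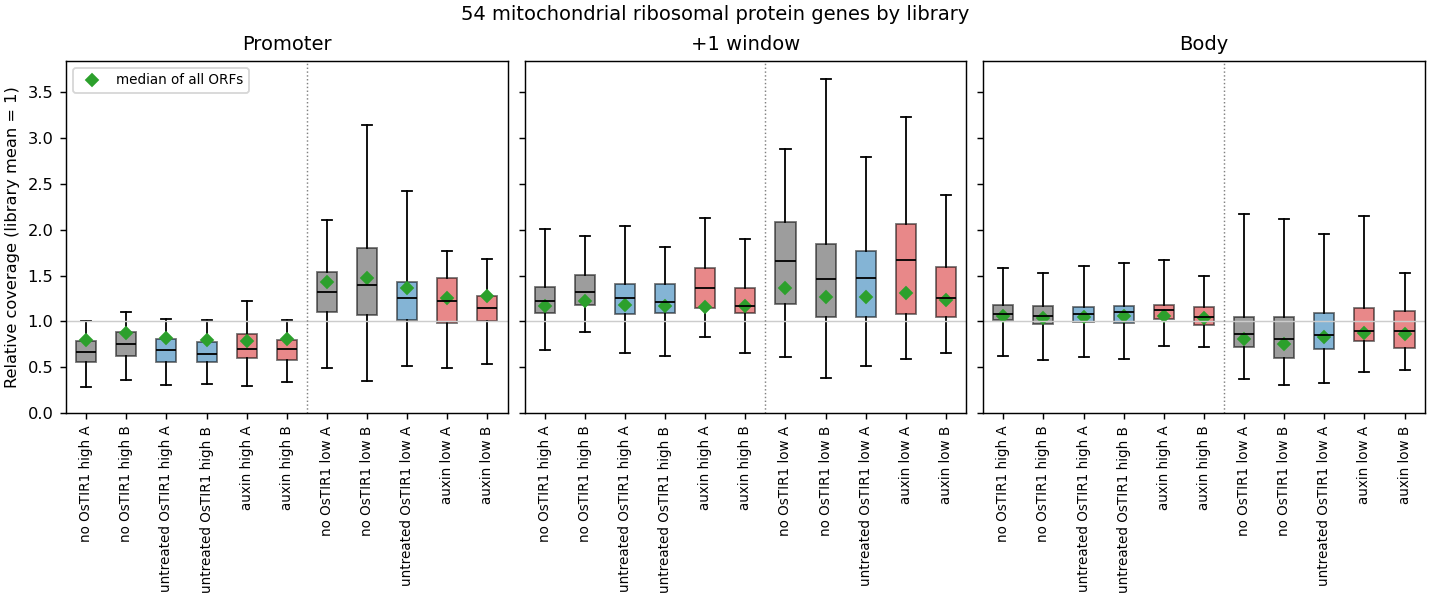
Relative coverage (vertical axis, library mean = 1) of the 54 members in the promoter, the +1 window and the body, for each library (horizontal axis; high dose left of the dotted line, low dose right). Boxes show the median and quartiles, whiskers the lowest and highest member, and green diamonds the median of all ORFs. Member promoters have medians of 0.644 to 0.757 at the high and 1.15 to 1.39 at the low dose.

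Promoter levels ranged widely within the set. In the high-dose libraries without OsTIR1, MRPS8 (uS8m), MRPL25 (mL59) and MRPL31 (mL60) had the highest promoters, with means of 1.04 ± 0.0536, 1.01 ± 0.00635 and 1.01 ± 0.143 (SD, n = 2). MRPL15 (mL57), RSM7 (uS7m) and MRPS12 (uS12m, the protein of the decoding centre) had the lowest, with 0.326 ± 0.0568, 0.426 ± 0.0144 and 0.463 ± 0.0269. The 3 highest did not differ beyond their spread, and the same holds for RSM7 and MRPS12. In the +1 window MRPL33 (uL30m), RSM18 (bS18m) and MRPL11 (uL10m, at the base of the stalk that binds translation factors) were highest at 1.97 ± 0.0549, 1.72 ± 0.123 and 1.69 ± 0.161. MRPL10, MRPL3 (mL44) and MRPL51 (mL43) were lowest at 0.783 ± 0.140, 0.884 ± 0.0283 and 0.939 ± 0.0398. In MRPL10 and MRPL3 the +1 nucleosome itself lay 75.5 and 63 bp inside the coding region at the high dose. The window ends at 86 bp, so in these genes it also covers DNA upstream of that nucleosome.

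The median promoter over the high-dose libraries was 0.700 for the 34 large-subunit genes and 0.682 for the 20 small-subunit genes. It was 0.678 for the 31 genes that diverge from their upstream neighbour and 0.709 for the 23 in tandem with it. With a gap of at least 400 bp to the neighbour it was 0.566 for the 12 divergent and 0.773 for the 6 tandem genes, and with a shorter gap 0.776 for the 19 divergent and 0.690 for the 17 tandem genes. These differences were not tested. For 15 members the upstream neighbour lies closer than 250 bp, so that their promoter window holds part of another gene. They include MRPS8 (203 bp) and MRPL25 (166 bp) of the highest promoters above and MRPS12 (229 bp) of the lowest. In the 50 bp window that begins 150 bp upstream, MRPS8 and MRPL25 had high-dose means of 0.205 and 0.108, and MRPS12 had 0.127. The start codons of MRPL19 and MRPL51 lie within the annotated ORFs YNL184C and YPR099C.

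Dose was the main difference between libraries. limma called 49 of 54 member promoters lower at the high dose and none higher, at a Benjamini-Hochberg adjusted p of 0.05 over all ORFs. Across all 5972 tested promoters 84.5% were called lower, so the members' count is close to the background. The median change was -0.80 (log2) in members and -0.69 over all ORFs. Without the 4 libraries whose labels disagree, 46 member promoters were called lower, beside 4979 of all 5972 promoters called in either direction. With groups taken from the labels, limma called 0 members in the promoter, the +1 window and the body, with 0, 3 and 1 at an unadjusted p below 0.05.

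MRPL15 had the largest fall. Its promoter stood at 0.285 and 0.366 without OsTIR1, 0.309 and 0.313 untreated and 0.301 and 0.343 with auxin at the high dose, and at 2.01 and 3.14, 2.42, and 1.07 and 1.65 at the low dose. The doses did not overlap, and the high-dose libraries were tightly grouped while the low-dose libraries spread over a wide range, with the 2 auxin libraries lowest. The fitted change was -2.34 (SE 0.134, adjusted p 2.41e-08).

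MRPL11 followed, at 0.494 and 0.591 without OsTIR1, 0.522 and 0.447 untreated and 0.522 and 0.486 with auxin at the high dose, and at 1.50 and 2.42, 1.73, and 1.22 and 1.40 at the low dose. Again the doses did not overlap, and the change was -1.50 (SE 0.118, adjusted p 2.14e-07). MRPL1, for uL1m of the mobile L1 stalk, fell by 1.26 on the log2 scale (SE 0.0950, adjusted p 1.66e-07), from 1.20 to 1.98 at the low dose to 0.553 to 0.724 at the high dose.

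The 5 promoters not called were MRPL4, MRPS18 (uS11m), MRPS12, MRPL13 (mL50) and MRPL7, with changes from -0.20 to 0.10. MRPS12 is an example in which both doses were low. Its promoter stood at 0.438 to 0.607 in the high-dose and at 0.519 to 0.575 in the low-dose libraries, which overlapped. The gene lies 229 bp downstream of RSM19, so most of its promoter window is the stretch between 2 mitochondrial ribosomal protein genes.

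In the +1 window 11 members were called higher and 23 lower at the high dose, beside 20% and 38.4% of all tested ORFs. In the body 38 were called higher and 6 lower, beside 75.1% and 10.8%. The median change was -0.24 in the members' +1 window (-0.11 over all ORFs) and 0.30 in their bodies (0.32 over all ORFs). The split depends on the scale, since dividing by each library's median ORF body instead shifted the median change of all bodies from 0.32 to 0.01. On that scale 5 +1 windows were called higher and 40 lower, beside 6.6% and 67.3% of all ORFs. For bodies 14 were higher and 19 lower, beside 37.8% and 36.3%, and 53 promoters were lower, beside 94.5%. On the scale of the nuclear mean, 33 members (61.1%) combined a lower promoter with a higher body, as did 62.9% of all ORFs.

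MRPL28, for the mitochondrion-specific protein mL40, had the largest rise in both the +1 window and the body. Its body stood at 1.12 and 0.999 without OsTIR1, 1.07 and 1.051 untreated and 1.19 and 1.01 with auxin at the high dose, against 0.432 and 0.318, 0.446, and 0.452 and 0.471 at the low dose. No low-dose library came near a high-dose one. The states overlapped at the high dose, and at the low dose both libraries without OsTIR1 were lowest and both auxin libraries highest. The body change was 1.16 (SE 0.0713, adjusted p 1.13e-06) and the +1 change 1.00 (SE 0.108, adjusted p 4.40e-05).

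MRPL4 (uL29m, a protein near the exit tunnel) rose by 0.97 in the body (SE 0.0604, adjusted p 1.18e-06) and 0.86 in the +1 window (SE 0.120, adjusted p 0.000181). MRPL49 (bL21m) rose in the body by 0.74 (SE 0.0732, adjusted p 1.12e-05) and RSM19 in the +1 window by 0.68 (SE 0.0922, adjusted p 0.000164). For all 3 these values of the doses did not overlap.

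MRPL20, for the mitochondrion-specific protein mL58, moved down in all 3 regions. Its +1 window stood at 1.31 and 1.40 without OsTIR1, 1.37 and 1.23 untreated and 1.59 and 1.33 with auxin at the high dose, and at 2.88 and 2.77, 2.36, and 2.99 and 1.78 at the low dose. The doses did not overlap there, and the change was -0.82 (SE 0.126, adjusted p 0.000347). In its body, where the change was -0.42 (SE 0.0676, adjusted p 0.000266), the highest high-dose library (auxin high A, 1.67) exceeded the lowest low-dose library (auxin low B, 1.53).

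MRPL50 (bL9m) and MRPL10 had the other large falls in the +1 window, by -0.86 (SE 0.0841, adjusted p 2.57e-05) and -0.74 (SE 0.113, adjusted p 0.000308). For MRPL10 this window also covers DNA upstream of its +1 nucleosome, which lay 75.5 bp inside the coding region. MRPL39 (bL33m) and MRPL27 (mL41) had the other large falls in the body, by -0.36 (SE 0.0895, adjusted p 0.00406) and -0.33 (SE 0.0771, adjusted p 0.00279). The low-dose body of MRPL27 spread from 1.11 to 2.12 and overlapped the high-dose range of 1.16 to 1.31. In 6 members (MRPL20, MRPL27, MRPL39, MRPL50, MRPS28 and RSM27) the promoter, the +1 window and the body were all called lower, a share of 11.1% beside 7.92% of all ORFs. The +1 window shares bases with both the promoter and the body, so these calls are not independent.

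**Figure D4:**
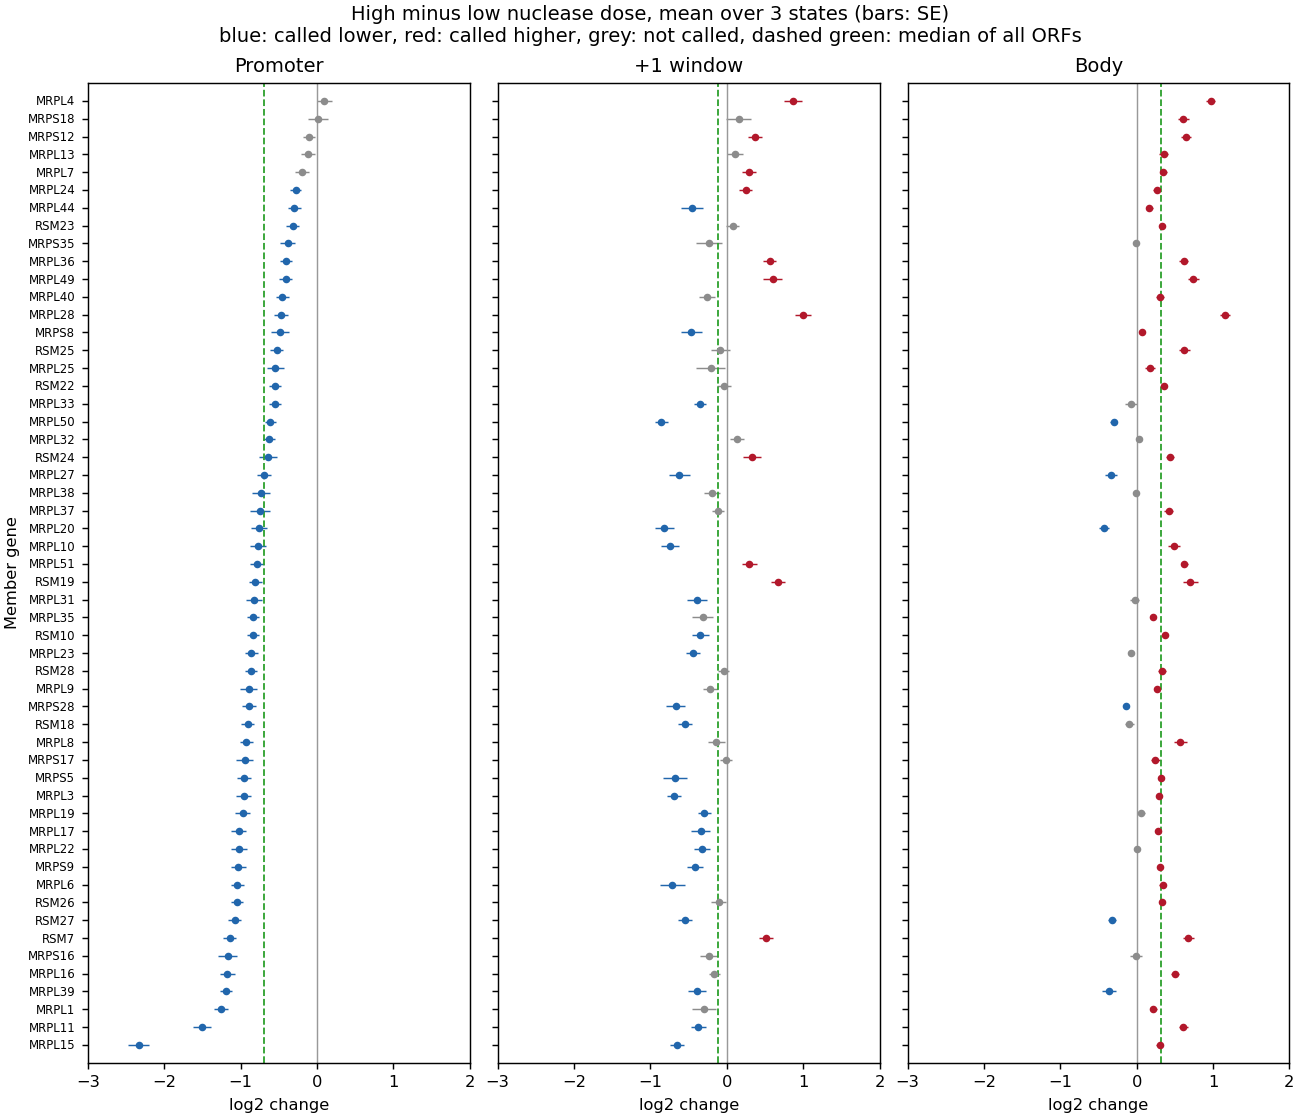
Log2 change from the low to the high nuclease dose (horizontal axes; limma estimate with SE, mean over 3 states) for each of the 54 members (vertical axis, ordered by promoter change) in the promoter, the +1 window and the body. Blue marks members called lower, red called higher and grey not called, and the dashed line is the median of all ORFs. Promoter changes run from -2.34 (MRPL15) to 0.10 (MRPL4), and the members' median of -0.80 lies near that of all ORFs at -0.69.

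Counted without a test, 40 of 54 member promoters were lower in every high-dose library than in any low-dose library, as were 73.6% of all ORFs. In the +1 window 12 members were lower and 6 higher without overlap, and in the body 4 were lower and 28 higher. The corresponding shares over all ORFs were 24.5% and 10.5% in the +1 window and 5.82% and 56.9% in the body.

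OsTIR1 alone made no difference that the test could call. Between untreated OsTIR1 cells and cells without OsTIR1 at the high dose, limma called 0 of 54 members in the promoter, the +1 window or the body, and 0 passed an unadjusted p of 0.05 in each. The shares called over all ORFs were 0% in the promoter, 0.0167% in the +1 window and 0.0167% in the body. Members' median changes were -0.07, -0.06 and 0.00, beside -0.04, -0.02 and 0.00 over all ORFs, and 43, 39 and 26 of the 54 members had a change below 0. The smallest p-values belonged to MRPL49 and MRPL35 (mL38) in the promoter with changes of -0.20 and -0.15, to MRPL37 (mL54) and MRPL9 (uL3m, near the peptidyl transferase centre) in the +1 window with -0.27 and -0.21, and to MRPL22 (uL22m) and MRPL4 in the body with 0.08 and 0.15. Every adjusted p in limma was close to 1. Over all ORFs an unadjusted p below 0.05 was reached by 23 of 5972 promoters, 13 of 5972 +1 windows and 63 of 5973 bodies. The fit used a shared estimate of spread for all 6 groups. Over all promoters A and B differed by a median of 0.07 in untreated high and 0.13 in no OsTIR1 high. At the low dose they differed by 0.17 without OsTIR1 and 0.23 with auxin. Small differences between the high-dose groups may therefore have been missed.

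Auxin likewise gave no called member; both comparisons share the untreated high-dose libraries. Between auxin-treated and untreated OsTIR1 cells at the high dose, limma called 0 of 54 members in each region, and 0, 1 and 7 passed an unadjusted p of 0.05 in the promoter, the +1 window and the body. Over all ORFs 0.0502% of promoters, 0.067% of +1 windows and 0.067% of bodies were called, and 4.89%, 3.55% and 12.8% passed an unadjusted p of 0.05. Members' median changes were 0.06, 0.04 and 0.01, and their extremes were -0.25 and 0.26, -0.33 and 0.40, and -0.21 and 0.32. Over all ORFs the median changes were -0.01, -0.01 and 0.00. For a single member, A and B differed in size by a median of 0.14, 0.22 and 0.10 with auxin and of 0.07, 0.07 and 0.05 in untreated cells.

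MRPL37, whose protein mL54 is mitochondrion-specific, was among the smallest p-values in both the +1 window and the body. Its body stood at 0.899 and 0.870 without OsTIR1, 0.757 and 0.844 untreated and 1.12 and 0.932 with auxin at the high dose. The auxin libraries were above the other 4, but auxin high A, a library whose label disagrees with its file name, was far above auxin high B. The change was 0.32 (SE 0.0942, limma adjusted p 0.232).

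MRPL51 had the smallest p in the body. It stood at 0.618 and 0.580 without OsTIR1, 0.614 and 0.588 untreated and 0.730 and 0.732 with auxin at the high dose, and at 0.370 and 0.315, 0.327, and 0.488 and 0.489 at the low dose. At each dose the auxin libraries were the highest, by a change of 0.24 at the high dose (SE 0.0656, limma adjusted p 0.193). In the promoter the smallest p-values belonged to MRPS12 and RSM19, each with a change of 0.22, and in the +1 window to MRPL37 with 0.40 and MRPL38 (uL14m) with -0.33. None of these passed the adjusted threshold.

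**Figure D5:**
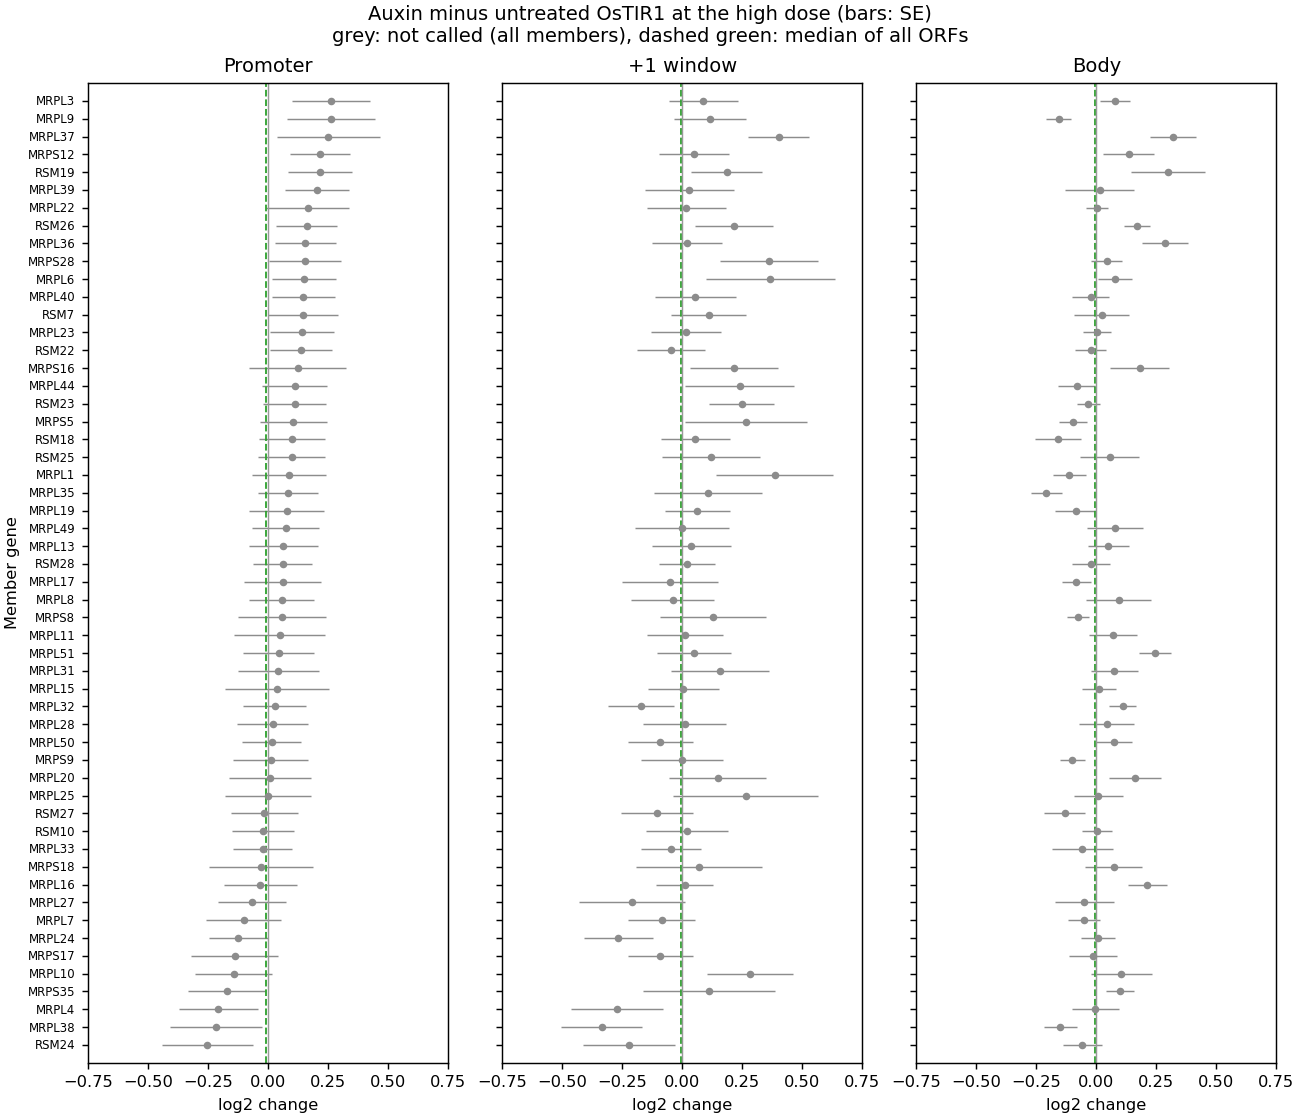
Log2 change from untreated to auxin-treated OsTIR1 cells at the high dose (horizontal axes; limma estimate with SE, 2 libraries each) for each of the 54 members (vertical axis, ordered by promoter change) in the promoter, the +1 window and the body. The dashed line is the median of all ORFs. All members are grey because none was called, and the largest body change is 0.32 (MRPL37).

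Genes of related function were described in the same contrast, with no test of any list. The 22 other mitochondrial ribosomal protein genes, whose symbols lie outside the rule, had median auxin changes of 0.06, 0.00 and 0.02 in the promoter, the +1 window and the body. The 21 genes of mitochondrial translation factors and aminoacyl-tRNA synthetases had 0.01, 0.02 and -0.03. The 36 nuclear genes of the respiratory chain and the ATP synthase had 0.13, 0.13 and 0.21, and the 138 cytosolic ribosomal protein genes 0.32, 0.09 and 0.30. No gene of these 4 lists was called, and in the body an unadjusted p below 0.05 was reached by 7 of 54 members, 2 of 22, 2 of 21, 17 of 36 and 109 of 138 genes in that order. Over all ORFs 12.8% reached it, close to the members' 13%, and the median body change was 0.00.

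The members' levels also differed from those of the cytosolic ribosomal protein genes. At the high dose without OsTIR1 the median body was 1.08 and 1.06 for the members and 0.849 and 0.817 for the cytosolic ribosomal protein genes, and the median promoter 0.664 and 0.757 against 0.362 and 0.398. With auxin the cytosolic bodies had medians of 1.06 and 0.987 beside the members' 1.13 and 1.053. In the cytosolic genes the mean profile bottomed further out, at -193 to -232 bp at the high dose. These genes were also depleted in the 50 bp window that begins 150 bp upstream. Their medians there were 0.0804 and 0.115 without OsTIR1, 0.0926 and 0.0761 untreated and 0.211 and 0.284 with auxin at the high dose. The members' medians were 0.0849 and 0.118, 0.0927 and 0.0846, and 0.119 and 0.174. At each gene's own lowest point the cytosolic medians were 0.0236 and 0.0532, 0.0380 and 0.0280, and 0.0544 and 0.0940.

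The dose effect was also compared between auxin-treated cells and cells without OsTIR1. limma called 0 members in the promoter and the +1 window, with 10 and 3 at an unadjusted p below 0.05, and 2 in the body, with 10 at that level. Over all ORFs 0% of promoters, 0% of +1 windows and 12.8% of bodies were called. An unadjusted limma p below 0.05 was reached by 754 of 5972 promoters, 564 of 5972 +1 windows and 1853 of 5973 bodies. The 2 called members were MRPL13 and RSM26, the latter for mS42, and both are given with their libraries under the results for a closer look. The smallest p-values elsewhere belonged to RSM7 (0.70) and MRPL50 (0.51) in the promoter and to MRPL15 (0.77) and MRPL32 (bL32m, -0.63) in the +1 window. At the low dose, mean fragment length was 161 and 160.3 bp without OsTIR1 and 162 and 150.1 bp with auxin, and its part in these differences was not tested.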

How the data were processed

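MNase-seq of 11 libraries was deposited by the authors as per-base coverage, a signal of whole-number fragment coverage on 17 contigs, for fragments of 95 to 225 bp per the file names. Reads were aligned with Bowtie2 to sacCer3, per the submitters' processing notes; versions are not given in the sources used here. ORF coordinates and names came from a RefSeq gene table (R64 names), with strand read from the locus tag. Coverage was divided by the library's mean over 16 nuclear chromosomes without the ribosomal DNA. limma 3.58.1 (R 4.3.3) was fitted to log2(relative coverage + 0.1) of all ORFs with a mean of at least 0.1, with a mean for each of 6 groups of state and dose and 2-sided tests at a Benjamini-Hochberg threshold of 0.05. Fold changes are on that scale and understate changes of low values. Profiles were smoothed over 21 bp. The fit was tested on simulated data with equal spread in all libraries. The simulated auxin changes were larger than those of any member, so changes of the members' size were not covered.

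Groups followed file names, as the rule for the set asks; labels and the 7 matching libraries were alternatives, with pseudocount 1, no filter, other windows, scaling to the median ORF body, a replicate block, an additive model and each library left out. A limma fit with trend and robust moderation was added after seeing the data. The named genes were the 3 called members with the largest rise and fall per region for dose, the called or the 2 smallest p-values otherwise, and the 3 highest and lowest levels; genes of the upstream gap, the 5 uncalled promoters and the gap window were chosen after their values were seen. The members and lists were chosen with earlier results of these data known. Promoter sequences and motifs were not used here.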

Additional observations from a re-analysis of the deposited data

Results flagged for a closer look

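The body of MRPL13, the gene of mL50 on the large subunit, differed in its dose effect between auxin-treated cells and cells without OsTIR1, by a limma interaction term of -0.51 (SE 0.122, adjusted p 0.0316). Without OsTIR1 it stood at 1.18 and 1.09 at the high and 0.838 and 0.675 at the low dose. With auxin it stood at 1.18 and 1.24 at the high and 1.22 and 1.16 at the low dose. In untreated OsTIR1 cells, which do not enter the term, it stood at 1.16 and 1.17 at the high and 0.793 at the low dose. The doses overlapped with auxin and in neither other state. RSM26, the gene of mS42 on the small subunit, had a term of -0.34 (SE 0.0766, adjusted p 0.0257). Its body stood at 1.12 and 1.04 against 0.747 and 0.733 without OsTIR1, at 1.24 and 1.23 against 1.07 and 1.15 with auxin, and at 1.08 and 1.09 against 0.814 in untreated OsTIR1 cells. The term differs in strain as well as in auxin, which cannot be told apart in it.

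Of the 4 auxin libraries, 3 carry labels that disagree with their file names, and with groups from the labels neither gene was called. Leaving out a single library gave between 0 and 9 called members, the 9 beside 1471 of 5973 ORFs. Without auxin high B the only member called had a positive term, so neither MRPL13 nor RSM26 was called there. Library depth, fragment length and label were not tested as sources of these values.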

How the results depend on the processing

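The number of members with a dose effect held within 1.5 times in the promoter, the +1 window and the body under every alternative except the labels, which called 0, 0 and 0. The split between higher and lower calls is given with the result. The strain and auxin counts were 0 in each region under every alternative except the additive model, which called 4 bodies higher with auxin (MRPL36, MRPL32, RSM26 and MRPL51, among 424 ORFs). The number of bodies whose dose effect differed between auxin-treated OsTIR1 cells and cells without OsTIR1 moved from 2 to 0 with the labels, 1 with scaling to the median ORF body, 5 with the replicate block and 8 with the start of the ORF left out. Leaving out each library in turn gave 0 to 9: 0 without no OsTIR1 high A, no OsTIR1 low B, either untreated high library or auxin high A, 1 without no OsTIR1 high B, auxin high B or auxin low A, 8 without auxin low B and 9 without no OsTIR1 low A. Over all ORFs the counts moved as well, from 766 of 5973 bodies in the main fit to 1058 with the replicate block and 852 of 5675 with the start left out. They were 764 without auxin low B and 1471 without no OsTIR1 low A. The member body called without auxin high B had a positive term, whereas both of the main fit had negative terms. Trend and robust moderation, added later, left every count as it was.

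Uncalled changes that reversed with the labels were MRPL35 (0.34) and MRPL49 (0.11) for strain in the promoter, RSM19 (-0.025) for auxin in the promoter, MRPL38 (0.13) for auxin in the +1 window and MRPL4 (-0.34) for strain in the body; RSM19 also reversed in the additive model (-0.034). The causes were not tested.

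The letters A and B were not taken as pairs, since differences between A and B did not correlate in every pair of groups (r from -0.20 to 0.59). They did correlate among no OsTIR1 low, auxin high and auxin low (0.34, 0.59 and 0.54), which enter the dose effect by state. With the letter as a replicate block the members' dose counts were 49, 35 and 44, beside 5301 of 5972, 3522 of 5972 and 5171 of 5973 ORFs. No member was called for strain or auxin. The dose effect by state could not be fitted with the 7 matching libraries, which hold no auxin low library, or in the additive model. Groups of 2 libraries, and of 1 in untreated low, limit every comparison.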
